A study of Mus musculus with 3 samples.

Results

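The 8 heat shock genes described here (Hspa1a, Hspa1b, Hspb1, Dnajb1, Hsph1, Hsp90aa1, Hspa8 and Hspa5) were chosen by symbol from the 31053 genes of a single-cell RNA sequencing (scRNA-seq) matrix of mouse brain. Each symbol matched 1 gene, and all 8 were measured. They were followed across cell classes and across the 3 libraries of the matrix. The tissue came from mice aged 10 weeks, of a strain spelled C56BL6 in the labels, in 3 conditions: control, Ischemic Stroke (IS) and Hemorrhagic Stroke (HS). Per the methods of the study, ischemia was made by occlusion of the middle cerebral artery and hemorrhage by collagenase injected into the brain. Target tissue of 8 mice per condition was dissociated, about 12000 cells were loaded per channel, and 1 library was made per condition. When after stroke the tissue was taken for these libraries was not stated in the labels or methods. The matrix tells the libraries apart only by a barcode suffix of 1, 2 or 3, and no source used here pairs a suffix with a condition. Values are therefore given by suffix, and no condition is read from them. With 1 library per suffix there are no replicates and no test: the 95% intervals cover counting error only, and a ratio between suffixes compares 3 libraries, not 3 conditions.

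Of 35968 barcodes, 31982 (88.9%) held at least 1000 unique molecular identifiers (UMIs) and at most 30% mitochondrial UMIs. A barcode was placed in a cell class when it held at least 5 UMIs over at least 3 markers of that class and this sum was at least 5 times that of every other class. This gate placed 23423 barcodes (73.2% of those kept). Of the 17 classes, 14 had at least 50 cells, which made 27 groups of a class and a suffix with at least 50 cells. Among the 10 genes with the highest fold in each of the 14 classes were 1 to 5 of its own markers, no marker of another class and none of the 8 heat shock genes. As the gate itself selects on these markers, their presence or absence there is no independent check of the class names. Suffix 3 stood apart from the others in its cells. It held 980 of 999 endothelial cells, 158 of 182 mural cells and 109 of 135 border macrophages, but 10 of 897 T cells. The median depth of the 27 groups ran from 2291 to 15502 UMIs per cell and the median mitochondrial share from 0.308% to 12%. There were 110 barcode sequences found in 2 libraries, 134 of the gated barcodes carried one, and without them the pooled Hspa1a ratio of microglia to oligodendrocytes was 5.37 in place of 5.36.

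Heat shock proteins are chaperones that bind unfolded protein and hold, refold or pass it on. Under proteotoxic stress the heat shock factor HSF1 binds heat shock elements in the promoters of the inducible members and switches them on, while the constitutive members serve folding in unstressed cells. In brain, the inducible HSP70 proteins and HSPB1 are long-known stress markers after ischemia, and heat shock and immediate early genes are also known to be switched on when tissue is dissociated. Hspa1a and Hspa1b encode the inducible HSP70, Hspb1 a small heat shock protein that also guards actin filaments, Dnajb1 a J-domain partner of HSP70, and Hsph1 an HSP110 that exchanges the nucleotide of HSP70. Hsp90aa1 encodes the stress-responsive cytosolic HSP90, Hspa8 the constitutive HSC70, which also strips clathrin from vesicles, and Hspa5 the chaperone BiP of the endoplasmic reticulum, which follows the unfolded protein response and not HSF1.

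The upstream sequences of the 3 members with the widest ranges are printed with their heat shock elements, the sites that HSF1 binds. RefSeq promoters (GRCm38.p6) were at hand for 6 of the 8 members, but not for Hsp90aa1 and Hspa8. Hspa1a (ENSMUSG00000091971, chr17:34969190-34972156, minus strand) and Hspa1b (ENSMUSG00000090877, chr17:34956436-34959238, minus strand) lie side by side, and Hspb1 (ENSMUSG00000004951, chr5:135887919-135889563) is on the plus strand. Gene bounds are those of GENCODE M21 on GRCm38. The 250 bases before each start are, 5′ to 3′, with matches to the heat shock element GAANNTTC in capitals:
Hspa1a: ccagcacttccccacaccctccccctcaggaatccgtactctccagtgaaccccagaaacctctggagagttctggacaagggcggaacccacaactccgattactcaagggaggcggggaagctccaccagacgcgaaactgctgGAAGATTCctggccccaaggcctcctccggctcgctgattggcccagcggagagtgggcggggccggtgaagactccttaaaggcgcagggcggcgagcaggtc
Hspa1b: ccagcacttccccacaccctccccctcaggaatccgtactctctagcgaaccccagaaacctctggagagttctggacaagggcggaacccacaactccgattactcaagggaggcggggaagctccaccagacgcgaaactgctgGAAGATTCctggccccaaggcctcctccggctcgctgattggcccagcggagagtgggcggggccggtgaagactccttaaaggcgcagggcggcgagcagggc
Hspb1: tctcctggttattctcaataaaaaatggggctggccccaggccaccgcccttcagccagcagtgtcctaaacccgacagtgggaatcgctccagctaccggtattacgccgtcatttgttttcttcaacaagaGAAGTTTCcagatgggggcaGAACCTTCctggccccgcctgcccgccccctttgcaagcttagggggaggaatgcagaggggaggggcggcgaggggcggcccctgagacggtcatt
These windows span chr17:34972157-34972406, chr17:34959239-34959488 and chr5:135887669-135887918. The windows of Hspa1a and Hspa1b were identical at 247 of 250 bases (98.8%), each with 1 match that began 104 bases before the start, and Hspb1 had 2, at 117 and 97 bases. GAANNTTC and the other orientation, TTCNNGAA, were searched on both strands, and no 2 matches overlapped in the windows of the members. Of the 6 members, 4 held at least 1 of them (Hspa1a, Hspa1b, Hspb1 and Hsph1, the last with TTCNNGAA), against 12.8% of 32817 promoter windows of the same length, and at least 2 were found in 1.45% of windows. Neither was found in these windows of Dnajb1 and Hspa5. Hspa5 (chr2:34771970-34777547, plus strand) instead held the ER stress element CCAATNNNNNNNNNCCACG, which 0.113% of windows hold, at chr2:34772025-34772043. This is 65 bases before its RefSeq start, which lies inside the GENCODE bounds given above, as the element does too. Its fixed letters are in capitals:
Hspa5: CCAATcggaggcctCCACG
A match is a string of letters and not a shown binding site. As Hspa1a and Hspa1b are near-identical copies, the share of their reads that the counting gave to each is uncertain, and their values are best read together.

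Levels are CPM, which scale a count to 1000000 UMIs, of the UMIs summed over the cells of a group. They are compared between classes for 1 gene at a time and not between genes. Over the 14 classes with the suffixes pooled, all 8 members had a highest class at least 4-fold above the lowest, from 4.25-fold for Hspa8 to 644-fold for Hspb1 (4 UMIs in the lowest class, monocyte/dendritic; 95% interval 252 to 2364). This range does not set the members apart, since 93.6% of the genes with at least 20 CPM in a class showed it.

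**Figure D1:**
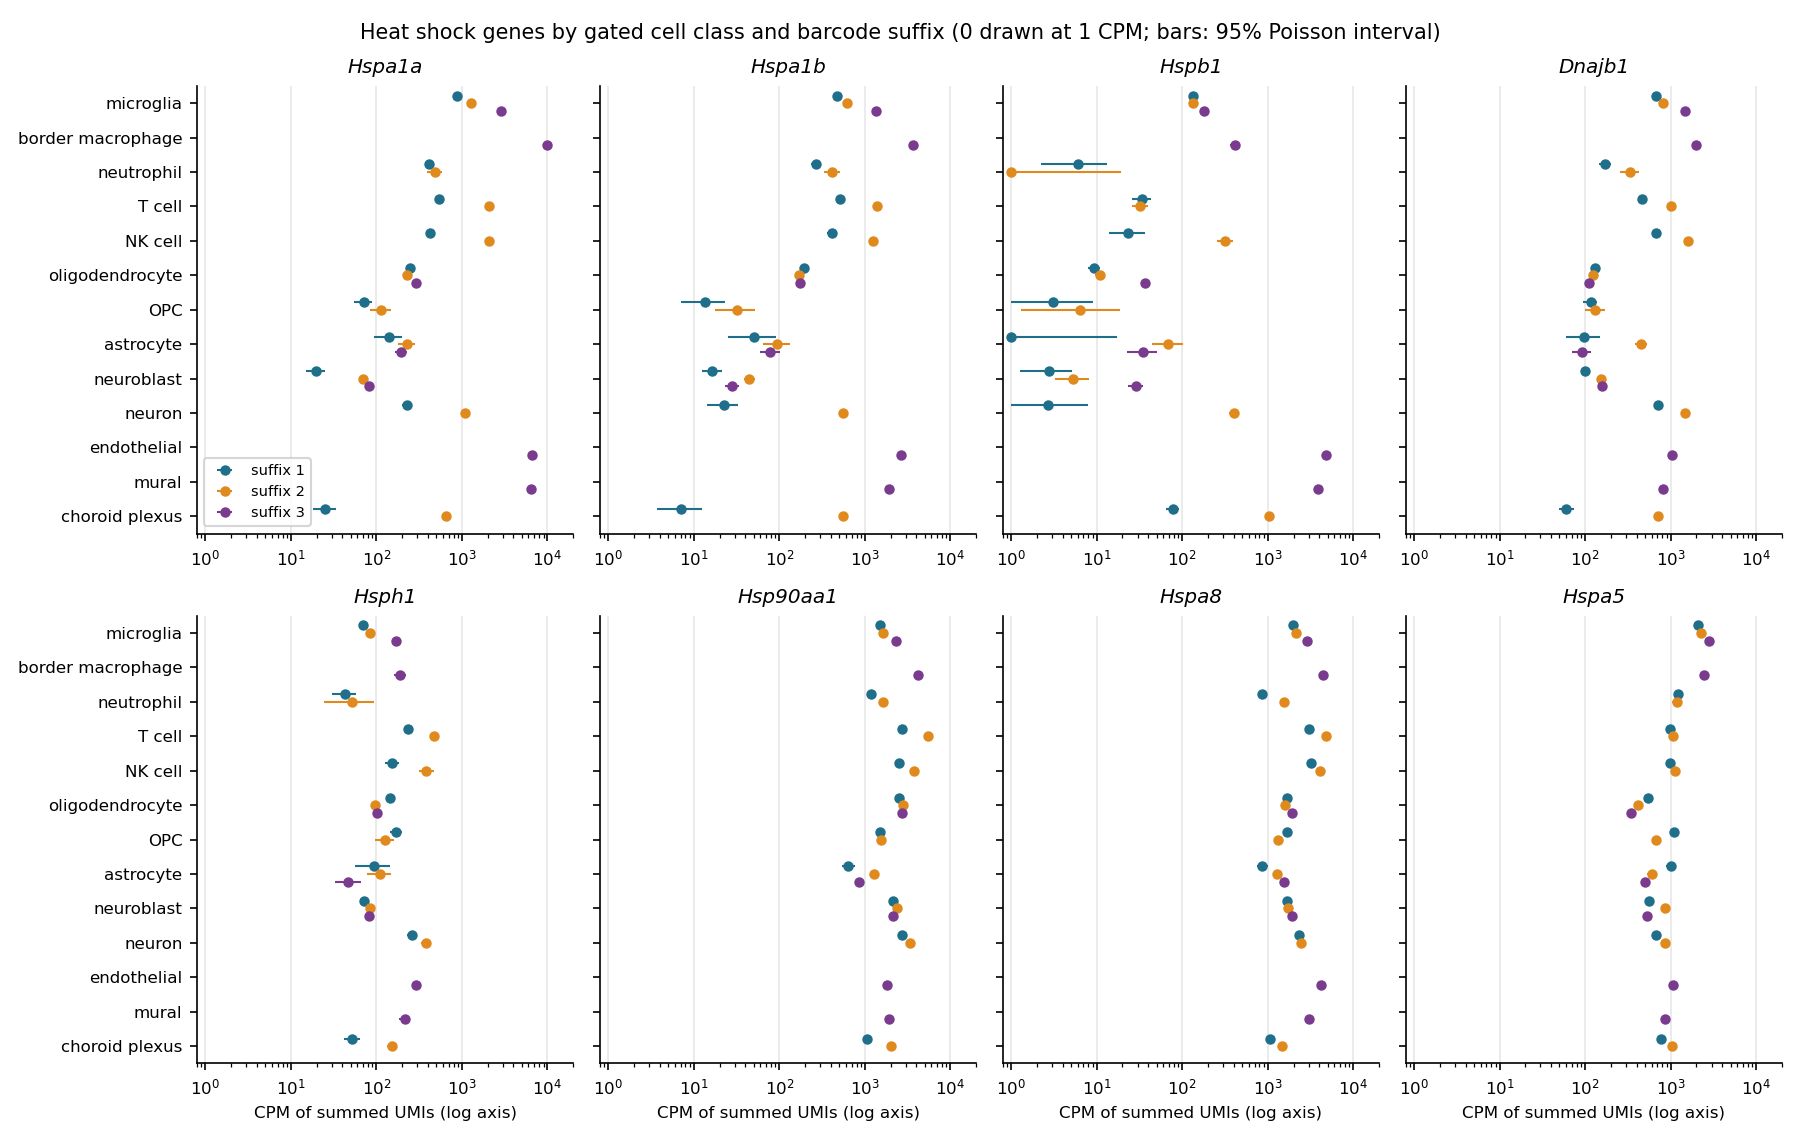
CPM of summed UMIs on a log axis for each of the 8 genes in every class and suffix with at least 50 cells; points are coloured by suffix, bars are 95% Poisson intervals and a level of 0 is drawn at 1 CPM. Hspa1a and Hspa1b of suffix 3 lie far to the right in border macrophages, endothelial and mural cells, while Hsp90aa1, Hspa8 and Hspa5 span less.

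The inducible HSP70 genes were highest in cells of the vessel wall and the brain borders. In suffix 3, the only library with at least 50 cells of these classes, Hspa1a was 9851 CPM in border macrophages (95% interval 9627 to 10079), 6664 CPM in endothelial cells (6610 to 6717) and 6363 CPM in mural cells (6182 to 6548). The first interval lay above the others, which themselves did not overlap. Microglia of the same library had 2866 CPM, oligodendrocytes 292, astrocytes 195 and neuroblasts, the migrating young neurons, 81.9. Neuroblasts were the lowest class in each suffix, with 19.5, 70.4 and 81.9 CPM in suffix 1, 2 and 3, and in suffix 1 their interval overlapped that of choroid plexus. In suffix 2 this place rests on deep choroid plexus barcodes. Under the UMI and gene maximum given below, choroid plexus had 22.5 CPM there and neuroblasts 68.1. Oligodendrocytes, the myelin-forming cells, stood above neuroblasts in every suffix, with 250, 230 and 292 CPM. In suffix 3 Hspa1b followed the same order, with 3679 CPM in border macrophages, 2647 in endothelial and 1915 in mural cells against 28.0 in neuroblasts. Its lowest class was choroid plexus in suffix 1 (7.15 CPM) and OPC, the oligodendrocyte precursor cells, in suffix 2 (31.8 CPM). Their intervals overlapped that of the next class. Under the same maximum, choroid plexus of suffix 2 had 9.64 CPM of Hspa1b and OPC 31.8.

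In the pooled order of Hspa1a, border macrophages (8466 CPM), endothelial cells (6630) and mural cells (5624) were followed by monocyte/dendritic cells (1577) and T cells (1471), whose intervals overlapped. Microglia (1391 CPM) and NK cells (856) came next, then neutrophils (519) and neurons (515), whose intervals overlapped too. Choroid plexus, oligodendrocytes, astrocytes, OPC (oligodendrocyte precursor cells) and neuroblasts closed the order without overlap, from 353 down to 58.8 CPM. The pooled levels rest on the libraries that supply the cells, so the ratio between the 2 most abundant classes was also taken within each. Microglia, the resident macrophages of brain, held 3.47 times the Hspa1a of oligodendrocytes in suffix 1 (3.36 to 3.58), 5.50 times in suffix 2 (5.35 to 5.66) and 9.83 times in suffix 3 (9.59 to 10.1). Over all depths the direction was the same in all 3 libraries, and the size was not. Both also differed with the depth of the cell. In cells of suffix 1, 2 and 3 with 4000 to 6000 UMIs, microglia had 2484, 3187 and 3893 CPM. Oligodendrocytes of that depth had 178, 205 and 315. With 12000 or more UMIs, microglia of suffix 1 had 226 CPM and oligodendrocytes 305, the opposite order. In suffix 2 and 3 microglia of that depth stayed higher, at 508 against 352 and 1870 against 258 CPM.

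Cells were also compared with all other gated cells of their own library, so that both sides of the ratio share a library. The mix of those other cells still differed between libraries. Beside microglia, they held 241, 479 and 1918 CPM of Hspa1a in suffix 1, 2 and 3. A gene was called where the ratio of (CPM + 10) was at least 2-fold in every suffix with 50 cells of the class. Endothelial cells were higher for 4 members (Hspa1a, Hspa1b, Hspb1 and Hsph1), where 15.6% of all tested genes passed. Border macrophages were higher for 4 (Hspa1a, Hspa1b, Dnajb1 and Hspa5), against 8.58% of genes, and mural cells for 3 (Hspa1a, Hspa1b and Hspb1), against 13.1%. These 3 classes rest on suffix 3 alone. Microglia were higher for 2 members, Dnajb1 and Hspa5, against 10.3% of genes. For Hspa1a their ratio was 3.49, 2.60 and 1.49 in suffix 1, 2 and 3, so it missed the mark in suffix 3 alone. T cells (10.1%) and neurons (19.6%) were higher for 1 each, Hsph1 in both.

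Glia of the oligodendrocyte and astrocyte lines and neuroblasts made up the other end. Oligodendrocytes were lower for 4 members (Hspa1a, Hspb1, Dnajb1 and Hspa5), where 15.6% of genes were, OPC for 4 (Hspa1a, Hspa1b, Hspb1 and Dnajb1), where 9.94% were, and neuroblasts for the same set of names as OPC, where 15.4% were. Astrocytes were lower for Hspa1a and Hspa1b (8.28% of genes), and border macrophages (27.1%) and neutrophils (22.9%) for Hspb1. The border macrophage call is against the other cells of suffix 3, which include 980 endothelial cells and had 941 CPM of Hspb1. Hsp90aa1 and Hspa8 were called in no class in either direction.

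**Figure D2:**
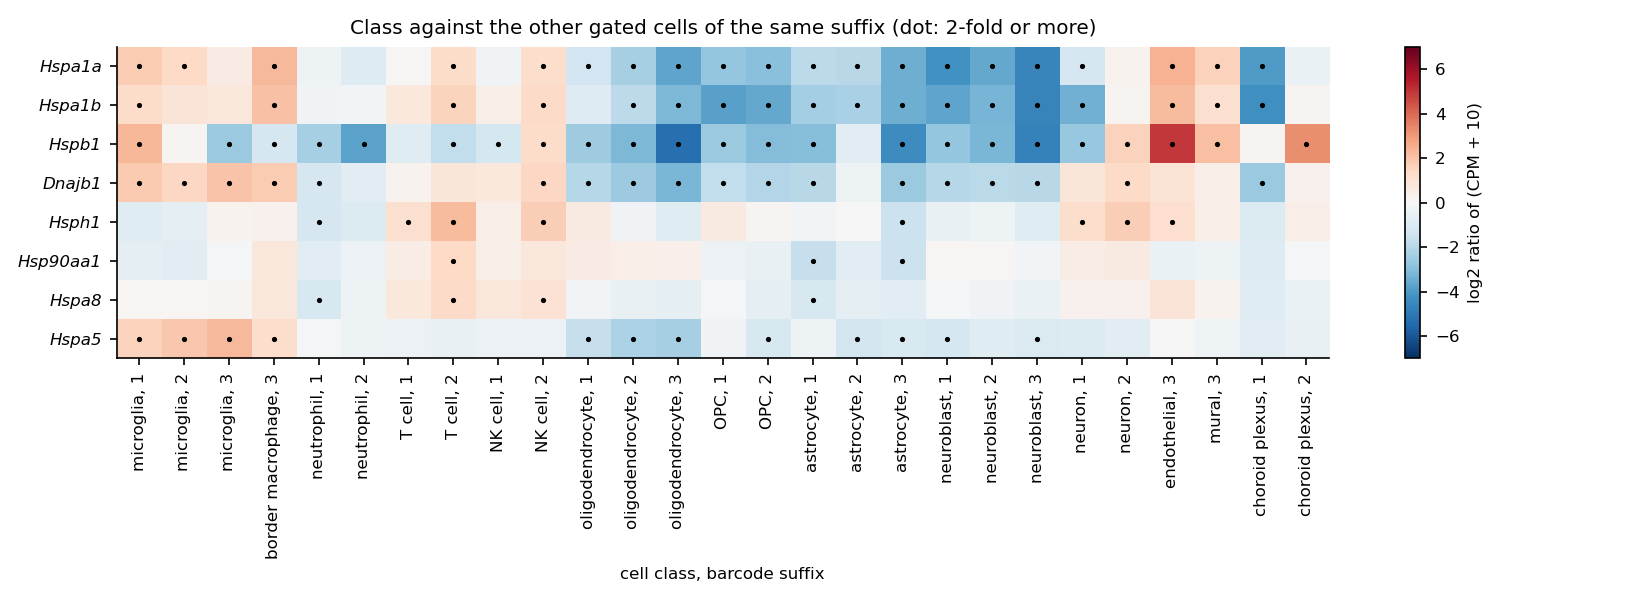
Colour gives the log2 ratio of (CPM + 10) in a class to the other gated cells of the same suffix, with genes as rows and the 27 groups of at least 50 cells as columns; a dot marks a ratio of 2-fold or more either way. Hspa5 is red in microglia and border macrophages and blue in oligodendrocytes, and Hspa1a is blue in oligodendrocytes, OPC, astrocytes and neuroblasts.

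Hspb1, the small heat shock protein, had the sharpest class pattern. In suffix 3 it was 4827 CPM in endothelial cells (4782 to 4873) and 3875 CPM in mural cells (3734 to 4020). It was found in 99.6% of endothelial and 100% of mural cells, and still in 94.7% and 89.9% after each cell was thinned to 1000 UMIs. These cells were thus nearly all positive, and the top 5% of cells held only 19.5% and 16.4% of their Hspb1 UMIs. Microglia of suffix 1, 2 and 3 had 132, 133 and 182 CPM, found in 12.5%, 14.7% and 28.1% of cells, and there the top 5% of cells held 87.5%, 81.2% and 71.1% of the UMIs. The median microglial cell had 0, while single cells reached 107, 97 and 66 UMIs.

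In oligodendrocytes and neuroblasts, Hspb1 was low and differed between libraries. In suffix 3, 20.02% of oligodendrocytes (37.1 CPM) and 17.5% of neuroblasts (28.6 CPM) held a UMI, at median depths of 6336 and 5582 UMIs, against 2.23% (9.36 CPM) and 1.71% (2.74 CPM) in suffix 1 at 6894.5 and 5334 UMIs. Thinned, the shares of suffix 3 were 5% and 4%. The 8 endothelial markers moved with them: all 8 had UMIs in both classes of suffix 3, and their sum was 74.9 CPM in oligodendrocytes and 68.1 CPM in neuroblasts there, against 2.34 and 2.44 CPM in suffix 1, although the gate itself bounds this sum. In suffix 3 the ratio of Hspb1 to that sum was 0.496 in oligodendrocytes and 0.420 in neuroblasts, against 0.362 in endothelial cells and 2.65 in microglia. In suffix 1 and 2 it was 4 and 3.85 in oligodendrocytes and 1.13 and 1.43 in neuroblasts, over marker sums of at most 3.69 CPM. The part of free RNA from other cells in these shares was not tested.

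Border macrophages had 410 CPM of Hspb1 in suffix 3, in 35.8% of cells, with 62.7% of UMIs in the top 5% of cells. Their endothelial markers summed to 193 CPM. Where the class sum had to be 10 times that of every other class, their pooled Hspb1 went from 325 to 63.0 CPM. Their Hspb1 level thus rests on barcodes that also carry markers of another class, and the part of those other cells in it was not tested. In neurons Hspb1 was 400 CPM in suffix 2 and 2.68 CPM in suffix 1, where it rests on 3 UMIs, a ratio of 149 (50.5 to 729). Only 8 of 52 neurons of suffix 2 held it, and the top 5% of cells held 77.0% of the UMIs.

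Dnajb1, the J-domain partner of HSP70, was highest in border macrophages of suffix 3 (1990 CPM), NK cells of suffix 2 (1608) and microglia of suffix 3 (1485). In microglia it was 679, 816 and 1485 CPM in suffix 1, 2 and 3, which was 3.57, 2.73 and 4.02 times the other gated cells as (CPM + 10). In oligodendrocytes it was 129, 124 and 110 CPM, 0.252, 0.171 and 0.111 times the others. Microglia thus stood above and oligodendrocytes below the rest of the brain cells in each library. In the pooled order, neurons (939 CPM), NK cells, microglia, mural cells and T cells (794) each overlapped the next, and the 3 lowest, neuroblasts (137), OPC (123) and oligodendrocytes (120), did too.

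Hsph1, the HSP110, led in neurons and T cells of suffix 1 and in T cells, NK cells and neurons of suffix 2. It was 233 and 475 CPM in T cells of suffix 1 and 2, and 260 and 379 CPM in neurons. T cells had 2.15 and 4.597 times the (CPM + 10) of the other gated cells and neurons 2.37 and 3.31 times. Endothelial cells of suffix 3 had 290 CPM. Microglia had 70.1, 83.3 and 171 CPM in suffix 1, 2 and 3, which was 0.548, 0.617 and 1.17 times the other gated cells. In suffix 1 and 2 microglia, summed over all depths, thus lay above the other cells for Dnajb1 and below them for Hsph1. In suffix 3 the second no longer held. The Hsph1 level differed with depth. Microglia with 4000 to 6000 UMIs had 154, 240 and 158 CPM, and the other gated cells of all depths 136, 141 and 145. Microglia with 12000 or more UMIs had 27.5, 29.0 and 177 CPM and made up 28.1%, 28.6% and 4.23% of the class.

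Hsp90aa1 and Hspa8 had the narrowest ranges over classes with the suffixes pooled, 4.67-fold and 4.25-fold. Within suffix 1 that of Hspa5 (3.80-fold) was narrower than that of Hsp90aa1 (4.23-fold). A UMI of Hsp90aa1 was found in at least 56.7% of cells and of Hspa8 in at least 65.0% of cells of every group, with astrocytes of suffix 1 the lowest for both. Hsp90aa1 was lowest in astrocytes in every suffix (644, 1286 and 854 CPM) and highest in T cells of suffix 2 (5448) and border macrophages of suffix 3 (4175). In suffix 1 T cells (2725) and neurons (2724) shared the top with overlapping intervals. It was close to flat in oligodendrocytes, at 2512, 2786 and 2701 CPM. Summed over all depths, microglia had 0.598, 0.592 and 0.846 times the Hsp90aa1 of oligodendrocytes in suffix 1, 2 and 3. In these summed levels Hsp90aa1 thus ran against Hspa1a between the classes, but not at every depth. With 4000 to 6000 UMIs, microglia had 3347, 3563 and 2861 CPM of Hsp90aa1 and oligodendrocytes 2411, 2904 and 2832. With 12000 or more UMIs, microglia had 679, 954 and 1955 CPM and oligodendrocytes 2326, 2401 and 2451. Hspa8 was 1975, 2111 and 2870 CPM in microglia, 1688, 1569 and 1939 CPM in oligodendrocytes, and 4208 CPM in endothelial cells of suffix 3. T cells had 3003 and 4780 CPM in suffix 1 and 2.

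Hspa5, the ER chaperone, separated microglia from oligodendrocytes in every library. It was 2082, 2248 and 2788 CPM in microglia of suffix 1, 2 and 3 and 548, 417 and 341 CPM in oligodendrocytes, a ratio of 3.80 (3.72 to 3.88), 5.39 (5.28 to 5.51) and 8.16 (7.97 to 8.36). Border macrophages of suffix 3 had 2445 CPM. In the pooled order these macrophages and microglia overlapped at the top (2384 and 2281 CPM), endothelial cells came next at 1073 CPM, and T cells, neutrophils, NK cells, monocyte/dendritic cells, mural cells, OPC and choroid plexus lay between 1018 and 908 CPM, each overlapping the next. Oligodendrocytes were the lowest class in every suffix, although in suffix 1 their interval overlapped that of neuroblasts (561 CPM). Of the 14 genes listed as ER chaperones and stress genes 13 were tested. In microglia 2 of them were higher than in the other cells (Sdf2l1, a BiP cofactor, and Herpud1, of ER degradation), where 10.3% of all genes were, and in oligodendrocytes 1 was lower (Herpud1), where 15.6% were. Both counts are near the background.

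The related chaperones give the setting, as named examples and not as counts over their lists. The small heat shock protein Cryab, an alpha-crystallin, was higher in oligodendrocytes than in the other cells. It was lower in each other class where it was called, among them microglia, T cells, astrocytes, neuroblasts, endothelial and mural cells. These lower calls are no separate result, as the other cells they are set against include the oligodendrocytes. Hspb8 was higher in endothelial cells and in choroid plexus. Of the HSP40 relatives, Dnajb4 and Dnajb9 were higher in microglia and lower in oligodendrocytes, and Dnajb2 was the opposite way in both. Bag3, a co-chaperone induced by HSF1, was higher in endothelial cells and border macrophages. The constitutive HSP90 gene Hsp90ab1 was called in neutrophils alone, where it was lower.

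Immediate early genes, which follow acute stimulation, were high in the classes with most Hspa1a but not in step with it throughout. All 13 were higher in endothelial cells (15.6% of all genes), 10 of 13 in border macrophages (8.58%) and 8 of 13 in microglia (10.3%), while 12 of 13 were lower in oligodendrocytes (15.6%) and 9 of 13 in neuroblasts (15.4%). Neutrophils of suffix 1 had more of them than microglia of that library (25659 against 22068 CPM) and less Hspa1a (409 against 867 CPM). The summed level of immediate early genes over the 27 groups ran from 1031 CPM in choroid plexus of suffix 1 to 51425 CPM in endothelial cells of suffix 3. Border macrophages (51224 CPM) and mural cells (43403 CPM) of suffix 3 were near the top as well. The part of these genes in the levels of the heat shock genes was not tested.

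The genes whose log-scale profile over the 27 groups was most like that of Hspa1a were drawn from 8270 genes and ranked by Pearson r. Among the first 10 were Hspa1b (0.960), Junb (0.870), Gm26532 (0.870), Dnajb1 (0.857), Csrnp1 (0.847), Klf4 (0.834), Fosb (0.829), Klf2 (0.825) and Zfp36 (0.821). For Hspa5 they were Ctsc (0.868), Fam105a (0.848), Nfkbiz (0.840), Mylip (0.838), Man2b1 (0.836), Kctd12 (0.833), Xlr (0.831), Nckap1l (0.829), Cysltr1 (0.825) and Ube2f (0.823). No member was among the latter. Between Hsp90aa1 and Hspa5 r was 0.06. The 27 groups share 3 libraries and differ in depth, so these values are descriptions.

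Within a class, the inducible genes were uneven from cell to cell. Cells with at least 1000 CPM of Hspa1a and Hspa1b together made up 97.1% of endothelial cells (95% interval 95.9% to 98.1%), 90.5% of mural cells and 80.7% of border macrophages of suffix 3. In microglia they were 37.0%, 47.5% and 72.9% in suffix 1, 2 and 3, and in oligodendrocytes 11.2%, 8.96% and 13.04%. In neuroblasts they were 0.190%, 1.56% and 0.762%. A threshold of 5000 CPM was passed by 70.0% of endothelial cells and 13.8%, 19.5% and 30.2% of microglia, but by 0.917%, 0.932% and 0.979% of oligodendrocytes. At the same time 28.0%, 17.9% and 3.98% of microglia of suffix 1, 2 and 3 held no UMI of either gene. High and negative cells were thus found side by side in microglia of suffix 1 and 2. In suffix 3, the only library with at least 50 endothelial cells, negative microglia were few. There 0.204% of endothelial cells and 8.26% of border macrophages held no UMI of either gene.

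**Figure D3:**
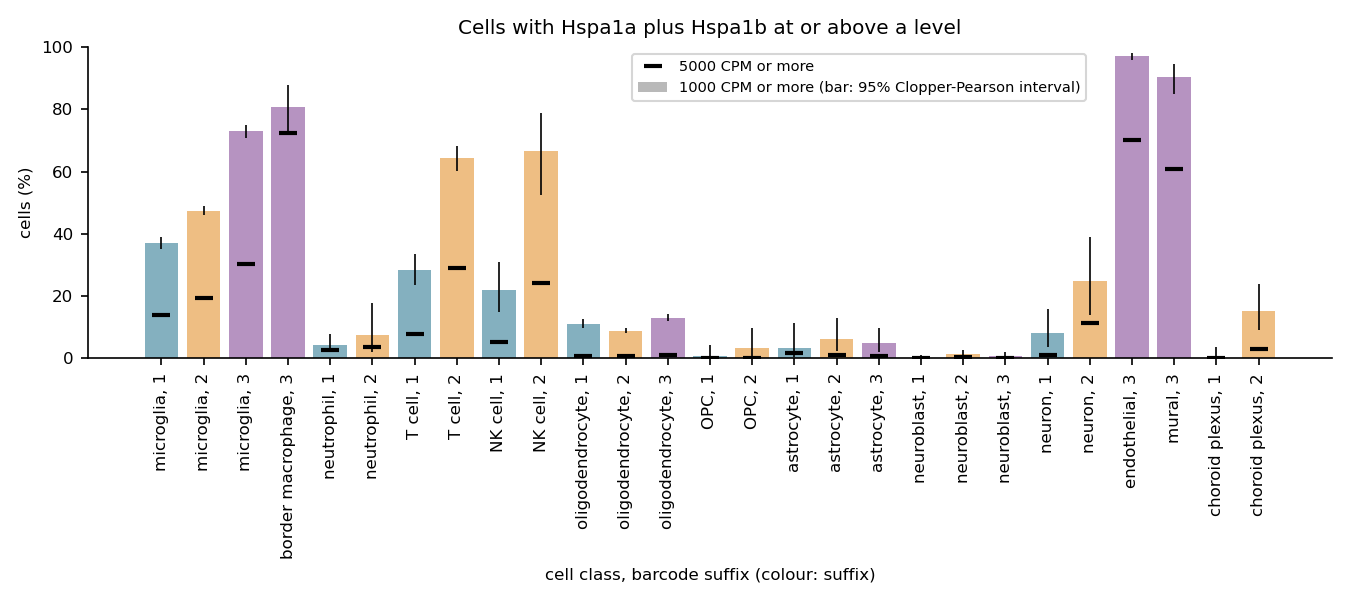
Percent of cells with Hspa1a plus Hspa1b at 1000 CPM or more (bars with 95% Clopper-Pearson intervals, coloured by suffix) and at 5000 CPM or more (black dashes) in the 27 groups. Endothelial cells, mural cells and border macrophages of suffix 3 lie above 80%, and T and NK cells of suffix 2 lie above those of suffix 1.

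Across single microglia, Spearman's rho with Hspa1a was highest for Hspa1b and lowest for Hspb1. It was 0.63, 0.68 and 0.60 for Hspa1b in suffix 1, 2 and 3, 0.60, 0.63 and 0.47 for Hsp90aa1, 0.55, 0.54 and 0.51 for the constitutive Hspa8, and 0.50, 0.51 and 0.41 for Dnajb1. With Hspa5 it was 0.36, 0.36 and 0.16, and with Hspb1 0.13, 0.13 and 0.10. In oligodendrocytes the rho between Hspa1a and Hspa1b was 0.38, 0.31 and 0.29, and in neuroblasts -0.06, 0.09 and 0.02, where few cells held a UMI. These are cells of 1 library each with the depth of the cell shared by both measures, and weak values in sparse counts are no finding.

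The Hspa1a level of microglia differed with the depth of the cell. In suffix 1, cells with 1000 to 2000 UMIs had 1448 CPM of Hspa1a, those with 2000 to 4000 had 2320, and those with 4000 to 6000 had 2484. Above that depth the level was lower: cells with 8000 to 12000 UMIs had 926 CPM and those with 12000 or more had 226. In suffix 2, cells with 4000 to 6000, 8000 to 12000 and 12000 or more UMIs had 3187, 1107 and 508 CPM. The deepest of these 3 bins was also the lowest in UMIs per cell, which were 12.4, 9.07 and 3.91 in suffix 1. Their immediate early genes summed to 39000, 24635 and 14418 CPM, and the 7 microglial markers to 4215, 2607 and 1519 CPM. In suffix 3 the bins were closer, at 3893, 2361 and 1870 CPM. Oligodendrocytes of suffix 1 had 178, 248 and 305 CPM in the same bins.

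The libraries differ in how many microglia lie in each bin. Cells with 12000 or more UMIs made up 28.1% and 28.6% of microglia of suffix 1 and 2 but 4.23% of suffix 3. This bears on the next comparison.

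**Figure D4:**
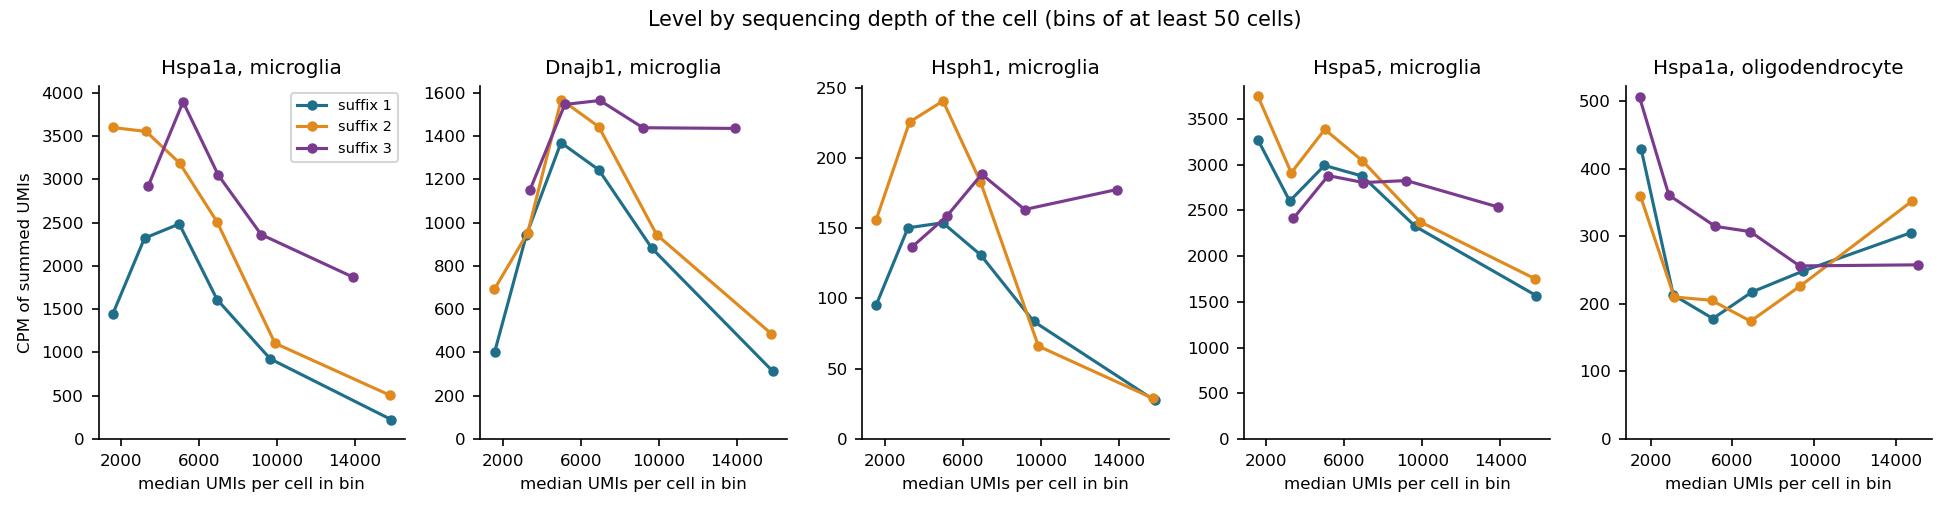
CPM of summed UMIs against the median UMIs per cell of depth bins with at least 50 cells, for Hspa1a, Dnajb1, Hsph1 and Hspa5 in microglia and Hspa1a in oligodendrocytes, 1 line per suffix. The microglial lines of suffix 1 and 2 drop towards deep cells, while those of suffix 3 stay higher at the right.

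Between the suffixes, microglia of suffix 3 stood out. Hspa1a was 867 CPM in suffix 1 (855 to 879), 1263 in suffix 2 (1252 to 1274) and 2866 in suffix 3 (2836 to 2898), a ratio of 3.31 (3.25 to 3.37) between suffix 3 and suffix 1. Hspa1b was 2.86 times, Hsph1 2.44 times and Dnajb1 2.19 times as high. Hsp90aa1 (1.52), Hspa8 (1.45), Hspb1 (1.37) and Hspa5 (1.34) were below the 2-fold mark. The 4 members past it compare with 15.3% of all tested genes, and with 25.2% where the highest and lowest of the 3 suffixes were compared. The whole profile was shifted: the median log2 ratio of suffix 3 over suffix 1 was 0.46 over all tested genes and 0.87 over the 8 members. Between suffix 2 and 1 these medians were -0.02 and 0.19, and no member reached 2-fold.

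In bins of matched depth this difference was smaller up to 12000 UMIs and larger in deeper cells. The bins match UMI totals only. With 4000 to 6000, 8000 to 12000 and 12000 or more UMIs, the 7 microglial markers summed to 4215, 2607 and 1519 CPM in suffix 1. In suffix 3 they summed to 6262, 4559 and 4613 CPM. In cells with 4000 to 6000 UMIs the suffix 3 over suffix 1 ratio was 1.57 for Hspa1a (1.52 to 1.62), 1.19 for Hspa1b, 1.13 for Dnajb1 and 1.03 for Hsph1 (0.888 to 1.19). In cells with 8000 to 12000 UMIs it was 2.55, 2.21, 1.63 and 1.95. In those with 12000 or more, which are 69 cells in suffix 3, it was 8.29, 8.77, 4.59 and 6.44. Hspa1a was higher in suffix 3 in all 5 bins that both libraries filled, from 1.26-fold up, and passed 2-fold in 2 of them. Against suffix 2 it was lower in cells with 2000 to 4000 UMIs (0.822, 0.772 to 0.875) and higher in the 4 deeper bins, from 1.22 to 3.68. Of the members under 2-fold against suffix 1, Hsp90aa1 was 0.777, 0.855 and 0.857 in the bins from 2000 to 8000 UMIs. In the deeper bins it was 1.22 and 2.88. Over all bins Hspb1 ran from 0.550 to 3.42, Hspa8 from 0.999 to 1.85 and Hspa5 from 0.927 to 1.62. With every cell thinned to 1000 UMIs, so that all cells weigh the same, 1 of the 8 members remained past 2-fold in place of 4. Markers of other classes also moved: the 8 oligodendrocyte markers summed to 74.2, 67.4 and 373 CPM and the 8 endothelial markers to 6.67, 12.7 and 68.6 CPM in microglia of suffix 1, 2 and 3. Their part in the difference was not tested.

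Related genes were compared in the same microglia. Of 55 tested genes of the chaperone and immediate early lists, 13 were at least 2-fold above suffix 1, where 15.3% of all genes were, and none was 2-fold below. Given the shifted profile, this count is not read as particular to the lists. They included Dnajb4 (420 against 202 CPM) and Dnajb9 (443 against 221), Xbp1 (184 against 76.7) and Atf4 (341 against 125) of the ER stress pathways, Bag3 (74.2 against 31.9), and Jun (9183 against 3465). Cryab, which is highest in oligodendrocytes, was 211 against 52.0 CPM.

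In T cells most members were higher in suffix 2 than in suffix 1. Hspa1a was 545 CPM (512 to 580) in 328 T cells of suffix 1 and 2070 CPM (2017 to 2124) in 559 T cells of suffix 2, a ratio of 3.80 (3.55 to 4.07). Hspa1b was 2.71 times, Dnajb1 2.14 times, Hsph1 2.04 times and Hsp90aa1 1.999 times as high, the last just short of the mark, and Hspa8 1.59 times. Hspa5 had 976 and 1052 CPM, a ratio of 1.08 (1.02 to 1.14). Hspb1 had 33.8 and 32.0 CPM, a ratio of 0.946 (0.676 to 1.33). The inducible members past 2-fold were 4 of 8, where 2.41% of the 4644 tested genes were. The median log2 ratio was 0.06 over all tested genes and 1.01 over the members.

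For Hspa1a the T-cell difference stayed above 2-fold at matched depth. It was 3.63 times as high in cells with 2000 to 4000 UMIs, 3.13 times with 4000 to 6000 and 2.52 times with 6000 to 8000. Hspa1b (2.30, 2.90 and 1.57), Dnajb1 (2.08, 2.54 and 1.45) and Hsph1 (3.31, 2.15 and 1.41) were above 2-fold in the first bins and not in the deepest, which holds 56 and 50 cells. Hspa5 was 1.18, 1.04 and 0.790. Hspa1a was found in 39.0% of T cells of suffix 1 and 74.6% of suffix 2, and in 22.3% and 58.3% after thinning, so more cells held it. Immediate early genes did not follow: they summed to 11599 and 11341 CPM, and none of the 13 was 2-fold apart. Of 51 tested genes of all chaperone and immediate early lists 1 was, where 2.41% of all genes were at least 2-fold higher. This was the mitochondrial chaperonin Hspd1, at 677 against 213 CPM. Short of that mark, the HSP90 list summed to 6607 CPM in suffix 2 against 3930 in suffix 1. The HSP40 list had 4267 against 2667 and the mitochondrial chaperonins 1968 against 984. The HSP70 relatives had 265 against 259, the small heat shock proteins 105 against 86.4, the heat shock factors 24.9 against 26.6 and the ER list 1890 against 1973. Cycling (cell cycle) genes did differ: 4 of 7 tested were at least 2-fold higher in suffix 2, where 2.41% of all genes were. Their list summed to 763 CPM in suffix 2 and 343 in suffix 1. The part of dividing cells in the heat shock levels was not tested. The median mitochondrial share was 2.57% and 2.25%.

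NK cells and neurons showed the same direction with fewer cells. In NK cells Hspa1a was 428 and 2092 CPM in suffix 1 and 2 (ratio 4.88, 4.25 to 5.61), and 5 members passed 2-fold against 8.57% of genes. One of these, Hspb1, had 96.4% of its suffix 2 UMIs in the top 5% of 54 cells. Cycling genes of NK cells summed to 297 CPM in suffix 1 and 19.1 CPM in suffix 2, the opposite direction to T cells. In neurons Hspa1a was 226 and 1090 CPM (4.82, 4.17 to 5.59) and Hspa1b 22.3 and 549 CPM (24.6, 16.4 to 38.5), with 4 members past 2-fold against 3.77% of genes. Immediate early genes in neurons summed to 17656 and 23680 CPM. Of the 12 tested, 5 were at least 2-fold higher in suffix 2, where 3.77% of all genes were, and none was 2-fold lower.

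Choroid plexus epithelium also gave wide ratios, and they rested on its deepest cells. Hspa1a was 25.01 and 645 CPM in suffix 1 and 2, Hspa1b 7.15 and 560, Hspb1 77.4 and 1031, and Dnajb1 60.1 and 717, and 5 members passed 2-fold against 5.07% of genes. The study's methods set an upper limit of UMIs and genes at the mean plus 2 standard deviations, which came to 18810 UMIs and 4010 genes. It removes 35 of 104 cells of suffix 2, with a median of 27846 UMIs, and with them 98.9% of the Hspa1a and 94.9% of the Hspb1 UMIs. Under this limit Hspa1a was 28.4 and 22.5 CPM, on 18 and 14 UMIs, so the higher level of suffix 2 was gone. The same limit removes 35 of 96 cells of suffix 1, which carried 57.1% of the Hspa1a UMIs there. All 13 immediate early genes were also at least 2-fold higher in suffix 2. Whether these deep barcodes are single cells was not tested.

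Neuroblasts had low levels that still differed. Hspa1a was 19.5, 70.4 and 81.9 CPM in suffix 1, 2 and 3. Suffix 2 was 3.61 times (2.74 to 4.82) and suffix 3 4.204 times (3.20 to 5.60) as high as suffix 1, and 2 members passed 2-fold in each, against 0.506% and 2.22% of genes. In suffix 2 these were Hspa1a and Hspa1b. In suffix 3 they were Hspa1a and Hspb1. Markers of other classes moved too in neuroblasts of suffix 3 against suffix 1: the endothelial markers summed to 68.1 against 2.44 CPM and the oligodendrocyte markers to 325 against 100.2 CPM. Their part in the difference was not tested. In suffix 2 the top 5% of cells held 65.5% of the Hspa1a UMIs, and 26.3 CPM remained without them.

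Oligodendrocytes, the largest class, were nearly flat. Hspa1a was 250, 230 and 292 CPM, Hspa1b 197, 171 and 175 CPM and Dnajb1 129, 124 and 110 CPM in suffix 1, 2 and 3. The 1 member past 2-fold was Hspb1 in suffix 3, against 0.574% of genes. Hspa5 was 0.760 (0.739 to 0.782) in suffix 2 and 0.623 (0.605 to 0.641) in suffix 3 relative to suffix 1, and Hsph1 was 0.678 and 0.721. Microglia summed over all depths went the other way for Hspa5, at 1.08 and 1.34. In suffix 3 this did not hold at every depth. Microglia with 2000 to 4000, 4000 to 6000 and 6000 to 8000 UMIs had Hspa5 ratios of 0.927, 0.963 and 0.975 to suffix 1. In oligodendrocytes none of the 54 tested genes of the chaperone and immediate early lists was 2-fold apart from suffix 1 in suffix 2 or 3.

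Astrocytes and OPC had few cells. In astrocytes of suffix 1, 2 and 3 (60, 98 and 144 cells) Hspa1a was 139 (93.8 to 198), 226 (179 to 282) and 195 CPM (164 to 229). These intervals overlapped. The ratio to suffix 1 was 1.63 (1.06 to 2.57) in suffix 2, which excludes 1, and 1.40 (0.941 to 2.15) in suffix 3. Under the UMI and gene maximum the levels were 177, 258 and 143 CPM. Dnajb1 was 97.3, 450 and 91.3 CPM, and the top 5% of cells of suffix 2 held 78.3% of its UMIs. It and Hspb1 passed 2-fold in suffix 2, against 17.7% of genes, which is close to the background. Hspa5 was 1014, 601 and 502 CPM, and its suffix 3 over suffix 1 ratio of 0.495 (0.418 to 0.588) was past the mark, as were 13.4% of genes. In OPC 1 member, Hspa1b, passed 2-fold in suffix 2 over 1 (31.8 against 13.4 CPM, 15 and 13 UMIs), against 4.22% of genes. With so few cells, differences between libraries in these classes were near the background.

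**Figure D5:**
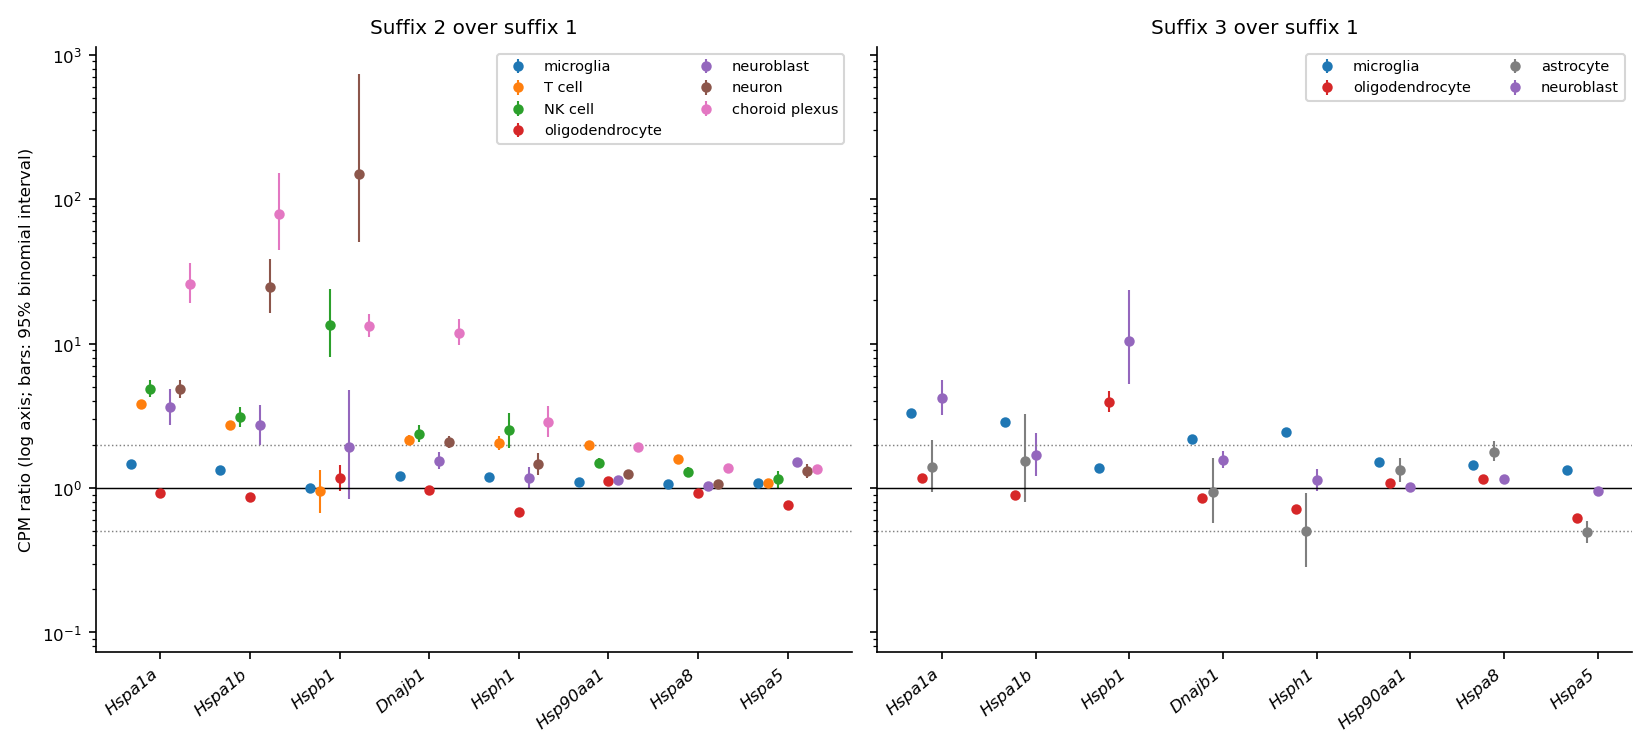
CPM ratio of suffix 2 over suffix 1 (left) and suffix 3 over suffix 1 (right) for the 8 genes on a log axis; points are classes (7 on the left, 4 on the right, and none where suffix 1 has 0 UMIs), bars are 95% binomial intervals, the solid line is 1 and dotted lines are 2-fold. On the left Hspa1a lies above 2-fold in T cells, NK cells, neuroblasts, neurons and choroid plexus and below it in microglia and oligodendrocytes, and on the right Hspa5 lies above 1 in microglia and below it in oligodendrocytes and astrocytes.

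Cycling microglia had low levels of the inducible members. In suffix 2, 121 microglia held at least 3 UMIs over the cycling genes. Their Hspa1a was 234 CPM against 1431 CPM in the 3522 microglia with none, a ratio of 0.164 (0.150 to 0.179), and Hspa8 was 0.685 and Hspa5 0.691. The cycling cells were deeper, with a median of 16120 against 7399 UMIs. Within the middle range of their depth, from 10726 to 23776 UMIs, Hspa1a was 149 CPM in 61 cycling and 659 CPM in 1019 other cells, a ratio of 0.226 (0.191 to 0.265). The difference thus remained within this range, but depth inside the range was not matched. The Hspb1 ratio of 0.784 (0.586 to 1.03) had an interval that included 1. Cycling neuroblasts had more Hspa5 and Hsp90aa1 than the others in each suffix. The ratios were 1.56, 1.84 and 1.43 for Hspa5 and 1.31, 1.32 and 1.17 for Hsp90aa1, at median depths of 11489, 9427 and 11690 UMIs against 4829, 3615.5 and 4803.5 in the others. For Hspa1a they were below 1, at 0.564 (0.278 to 1.07), 0.392 (0.285 to 0.533) and 0.536 (0.410 to 0.696), and the first interval includes 1. For Dnajb1 they were 0.688, 1.59 and 1.01. The neuroblast ratios were not matched for depth.

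The mitochondrial share did not follow the inducible genes in 1 way. In oligodendrocytes of suffix 1, Hspa1a was 286, 235, 191 and 313 CPM in cells with under 5%, 5% to 10%, 10% to 20% and 20% to 30% mitochondrial UMIs. Hspa8 was lower from bin to bin, with 1940, 1648, 1154 and 710 CPM, and likewise in suffix 2 and 3. In microglia of suffix 3, Hspa1a was 2936 CPM under 5% and 1713 CPM from 5% to 10%. Microglia of suffix 1 had 869 and 829 CPM in these bins, and those of suffix 2 had 1265 and 1273 CPM. At a limit of 10%, the pooled Hspa1a ratio of microglia to oligodendrocytes was 5.34.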

How the data were processed

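Single-cell libraries of dissociated brain from control, IS and HS mice were pooled by the authors into 1 matrix. Per the methods and the submitters' processing notes, the authors used Cell Ranger 3.1.0 with STAR on mm10, down-sampled reads across libraries and worked on in Seurat 3.1.1. The deposited values are whole UMI counts per gene and barcode, with no normalization per cell. All 3 libraries share this matrix, so it was treated as 1 sample and no test was run.

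Barcodes with at least 1000 UMIs and at most 30% mitochondrial UMIs were gated by marker UMIs. Droplets with mixed markers (5441) or with too few markers (3118) were left ungated, and no doublet caller was run. Median depth was 6389, 5801 and 6287.5 UMIs in suffix 1, 2 and 3. Counts were summed per class and suffix and given as CPM with exact Poisson intervals, ratios with exact binomial intervals and shares with Clopper-Pearson intervals. Ratios of a class to the other cells were taken on CPM + 10 and ratios between suffixes on CPM, both over genes with at least 20 CPM in a group compared and with a 2-fold mark. All 8 members were named, with the 10 genes most like Hspa1a and Hspa5 by profile, of which 1 is not reported here, and the related genes past the mark. Shares were also taken after thinning each cell to 1000 UMIs. The members and lists were chosen with earlier results of these data known. Scripts were tested on simulated data and used Python 3.11.15, NumPy 2.4.6, pandas 2.3.3, SciPy 1.17.1 and Matplotlib 3.10.9.

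Alternatives were other gates, mitochondrial and UMI limits, equal library weights, thinning, pseudocounts, filters and leaving out each suffix. Leaving out shared barcodes or the top 5% of cells, depth bins and the depth range for cycling cells were chosen after seeing the data.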

Additional observations from a re-analysis of the deposited data

Results flagged for a closer look

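Between suffix 3 and suffix 1, 2 members lay on opposite sides of 1 in microglia and oligodendrocytes. Hsph1, the HSP110, was 2.44 times as high in microglia (2.28 to 2.60) and 0.721 times in oligodendrocytes (0.682 to 0.762). Hspa5, the ER chaperone, was 1.34 times as high in microglia (1.32 to 1.36) and 0.623 times in oligodendrocytes (0.605 to 0.641). Each side is 1 library against 1 library, and the difference between the classes was not tested. In microglia the Hsph1 ratio ran from 0.908 to 6.44 over depth bins and that of Hspa5 from 0.927 to 1.62.

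Barcodes outside the cell classes also held Hspa1a. Those removed by the UMI and mitochondrial filter had 599, 1131 and 736 CPM in suffix 1, 2 and 3. Kept barcodes with mixed markers of several classes had 459, 1280 and 3662 CPM, so suffix 3 was the highest there as it was among microglia. Their Hspb1 was 55.1, 106 and 1845 CPM, and which cell classes they combine in each library was not tested. Barcodes outside the classes enter no comparison.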

How the results depend on the processing

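The count of members with a 4-fold range over classes was 8 and stayed at 7 or 8 under every alternative run for it. The 15 calls of a member above the other cells of its library were rerun only with other pseudocounts and filters and without shared barcodes. There they stayed between 13 and 15. Other gates, mitochondrial and UMI limits, thinning and leaving out a suffix were not run for these calls. Those of endothelial cells, mural cells and border macrophages rest on suffix 3 alone. The pooled Hspa1a ratio of microglia to oligodendrocytes (5.36) stayed above 1 throughout. It was 5.94 where other classes had to be at most 1/10 of the class sum, 6.26 under the UMI and gene maximum, 6.48 with equal library weights and 7.53 after thinning to 1000 UMIs. Leaving out 1 suffix at a time gave 4.70 (without suffix 3) to 6.18 (without suffix 1). The cause was not tested. The count of members 2-fold apart between suffixes in microglia went from 4 to 1 after thinning, and to 0 without suffix 3, against 4 without suffix 2. Equal library weights give no value for this count. Of the members' pooled CPM by class, none of 112 moved by over 1.5 times with 10 marker UMIs, a 10% mitochondrial limit, 2000 UMIs or without shared barcodes. Under the UMI and gene maximum 7 of 112 did (Hspa1b in choroid plexus, 299 to 7.88 CPM), after thinning 13 of 112, and without suffix 1, 2 or 3 it was 15 of 104, 17 of 104 and 6 of 88. With equal library weights Hspb1 in neutrophils went from 128 to 3.04 CPM. No paired analysis was possible because each suffix is 1 library and no source pairs it with a condition. Depth limits what can be seen in classes of few cells: 0 UMIs of Hspb1 in neutrophils of suffix 2 still allow up to 19.0 CPM.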
